A study of Homo sapiens with 8 samples.

Results

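Chromosome 22 carried 1209 H3K4me1 peaks in ARID1A knockout cells and 1472 in control cells, which is 2681 of the 156603 peaks in both lists. The peaks described here are all those of the chromosome, sorted by their midpoints into 5 Mb bins counted from position 1. The bin from 35 to 40 Mb was set against the rest of the chromosome because its median pileup and input background were lower in the knockout list. In every other bin with peaks both were higher in the knockout list. The bin was thus chosen by measured peak numbers, covered bases, pileup and implied background, which are given as a description.

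H3K4me1 is the monomethylation of lysine 4 on histone H3. The mark is placed mainly by the methyltransferases KMT2C and KMT2D and lies at enhancers and on the flanks of active promoters, where it surrounds a start site that carries the trimethylated form. ARID1A is the largest subunit of the BAF form of SWI/SNF, binds DNA and helps this remodelling complex to move nucleosomes and open chromatin at many enhancers. The long arm of chromosome 22 is gene-rich and holds the immunoglobulin lambda, APOL and APOBEC3 clusters, the chromatin genes EP300 and SMARCB1 and the tumour suppressor gene NF2.

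The cells were MDA-MB-231, a long-established triple-negative breast cancer line, either with ARID1A knocked out or labelled as control, while the sources used here do not give how the knockout was made or whether it is 1 clone. The study had 8 samples in 4 groups of 2: knockout immunoprecipitate, knockout input, control immunoprecipitate and control input. The result was 1 peak list per genotype, immunoprecipitate over input, so no value here has a spread between samples, no test was possible, and each difference describes these 2 lists. Read depth is unknown, and the intervals given for ratios and shares are 95% intervals that cover counting error over peaks only. Those for a ratio of 2 medians are built from the 95% intervals of both medians and are not exact 95% intervals. Over the whole genome the knockout list held 73603 peaks and the control list 83000. Of 6 genes known in mesenchymal triple-negative lines (VIM, CD44, EGFR, AXL, MSN and ZEB1), all had peaks in both lists. The luminal genes ESR1, GATA3, FOXA1 and KRT19 had peaks in both lists too, and of the blood genes CD33 had none, CD3E had 1 in each list and PTPRC had 21892 covered bases in the knockout list and 9452 in the control list. The ARID1A gene had 39191 covered bases in the knockout list and 44673 in the control list, which does not check the knockout.

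The lists differed at individual start sites on the chromosome, and 4 promoter windows show this. Each window runs from 250 bases before to 50 bases after a start, in RefSeq sequence of GRCh38.p14, read on the strand of the gene. CG dinucleotides are in capitals because the windows differ in CpG content. These 4 are picked examples and do not stand for a CpG split between the lists. Over the chromosome the median was 29.5 CG in windows under a knockout peak alone and 30 under a control peak alone. CYB5R3, the gene of a reductase that keeps cytochrome b5 and methaemoglobin reduced, had a knockout peak and no control peak over the upstream window below and the reverse over the downstream one. TMEM184B, a transmembrane protein gene in the 35 to 40 Mb bin, and BCR, the gene of a GTPase regulator that is broken in chronic myeloid leukaemia, had fewer covered bases over the whole gene in the knockout list but also had a knockout peak alone over these windows.
CYB5R3 upstream start, chr22:42649343-42649642, minus strand, 45 CG, under a knockout peak alone: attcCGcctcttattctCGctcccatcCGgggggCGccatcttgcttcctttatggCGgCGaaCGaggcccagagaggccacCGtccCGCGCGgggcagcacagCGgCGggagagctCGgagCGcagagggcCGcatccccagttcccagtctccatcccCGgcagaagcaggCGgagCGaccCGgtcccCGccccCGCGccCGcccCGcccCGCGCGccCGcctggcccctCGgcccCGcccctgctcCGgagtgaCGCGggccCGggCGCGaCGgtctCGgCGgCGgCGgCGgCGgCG
CYB5R3 downstream start, chr22:42644577-42644876, minus strand, 8 CG, under a control peak alone: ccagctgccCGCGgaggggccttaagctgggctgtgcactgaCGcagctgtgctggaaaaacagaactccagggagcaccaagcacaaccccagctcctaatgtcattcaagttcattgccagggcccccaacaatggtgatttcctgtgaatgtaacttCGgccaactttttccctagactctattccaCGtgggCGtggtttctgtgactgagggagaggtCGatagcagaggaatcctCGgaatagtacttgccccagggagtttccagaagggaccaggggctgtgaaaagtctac
TMEM184B, chr22:38272961-38273260, minus strand, 40 CG, under a knockout peak alone: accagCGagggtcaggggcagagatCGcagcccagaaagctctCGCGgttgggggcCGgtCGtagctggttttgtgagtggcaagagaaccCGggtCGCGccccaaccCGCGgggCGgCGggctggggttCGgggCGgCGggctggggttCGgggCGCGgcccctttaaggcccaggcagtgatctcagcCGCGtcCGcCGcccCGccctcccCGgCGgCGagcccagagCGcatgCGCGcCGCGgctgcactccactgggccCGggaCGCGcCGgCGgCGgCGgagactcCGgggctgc
BCR, chr22:23180259-23180558, plus strand, 27 CG, under a knockout peak alone: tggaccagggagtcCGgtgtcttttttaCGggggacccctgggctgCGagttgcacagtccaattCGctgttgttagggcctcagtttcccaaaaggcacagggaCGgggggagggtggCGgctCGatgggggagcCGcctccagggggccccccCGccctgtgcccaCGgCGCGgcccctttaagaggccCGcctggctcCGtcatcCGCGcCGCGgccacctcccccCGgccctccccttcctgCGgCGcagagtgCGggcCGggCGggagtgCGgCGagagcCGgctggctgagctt

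Of 40 miRNA hairpins of the chromosome at hand from RefSeq, 2 lay under a peak of both lists, 5 under a knockout peak alone, 0 under a control peak alone and 33 under none. That set is not complete: MIR301B, close to MIR130B, and MIR1306 are among those not counted. Over all chromosomes in the table, 164 of 1558 lay under peaks of both lists, 54 under a knockout peak alone and 63 under a control peak alone. The mature sequences below belong to hairpins under peaks, with the seed (bases 2 to 8) in capitals, and each has a different seed.
hsa-miR-130b-3p, chr22:21653354-21653375, plus strand, under peaks of both lists: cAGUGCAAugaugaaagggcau
hsa-miR-658, chr22:37844287-37844311, minus strand, under a knockout peak alone, in the 35 to 40 Mb bin: gGCGGAGGgaaguagguccguuggu
hsa-miR-3200-3p, chr22:30731610-30731631, plus strand, under a knockout peak alone: cACCUUGCgcuacucaggucug
hsa-miR-3199, chr22:27920535-27920557, plus strand, under a knockout peak alone: aGGGACUGccuuaggagaaaguu
The hsa-miR-3199 sequence is carried by both hairpins MIR3199-1 and MIR3199-2, which lie on opposite strands of the same place and so count as 2 of the 5. The remaining hairpin under a knockout peak alone was MIR6821, and MIR648 was the other under peaks of both lists. The MIR33A hairpin, inside SREBF2, and the MIRLET7A3 and MIRLET7B hairpins lay under no peak.

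Over the whole chromosome the knockout list held 0.821 times as many peaks as the control list (95% interval 0.761 to 0.887), against 0.888 times (0.879 to 0.897) on all other chromosomes together. Peaks covered 3085840 bases in the knockout list and 3568052 bases in the control list, giving a ratio of 0.865, against 0.964 elsewhere. That ratio of covered bases was the second lowest of 23 chromosomes. The median pileup, which is the height of stacked fragments the authors' caller gave for a peak, was 15.8 in the knockout list and 14.6 in the control list. The pileup ratio of 1.08 was also the second lowest of the 23 chromosomes and lay below the 1.21 of all other chromosomes. The median peak width was 1703 bases in the knockout list and 1554.5 bases in the control list, and the median fold enrichment over input was 3.27 in the knockout list and 3.29 in the control list. Chromosome 22 had the highest median fold of the 23 chromosomes in both lists.

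The input signal behind each peak was read back from the authors' values as (pileup + 1) divided by fold, minus 1, and is called the implied background. It had a median of 4.01 in the knockout list and 3.47 in the control list on chromosome 22. Over all peaks the ratio of the median backgrounds, knockout over control, was 1.25, so each ratio was divided by this value to give a relative background ratio, which is 1 where a region follows the genome. For the chromosome as a whole the relative ratio was 0.927.

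The bins were not alike. Among the 8 bins from 15 to 55 Mb, knockout peaks were fewer in all 8. The bin from 15 to 20 Mb held 94 knockout and 117 control peaks. The next, from 20 to 25 Mb, held 150 knockout and 184 control peaks. From 25 to 30 Mb there were 182 knockout and 204 control peaks, and from 30 to 35 Mb 119 knockout and 144 control peaks. The bin from 35 to 40 Mb held the most in both lists, 272 knockout and 361 control peaks. Beyond it were 210 knockout and 263 control peaks from 40 to 45 Mb, 139 knockout and 147 control peaks from 45 to 50 Mb, and 42 knockout and 48 control peaks from 50 to 55 Mb. The bin from 10 to 15 Mb, next to the centromere, held 1 knockout and 4 control peaks and is too sparse for a median.

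**Figure D1:**
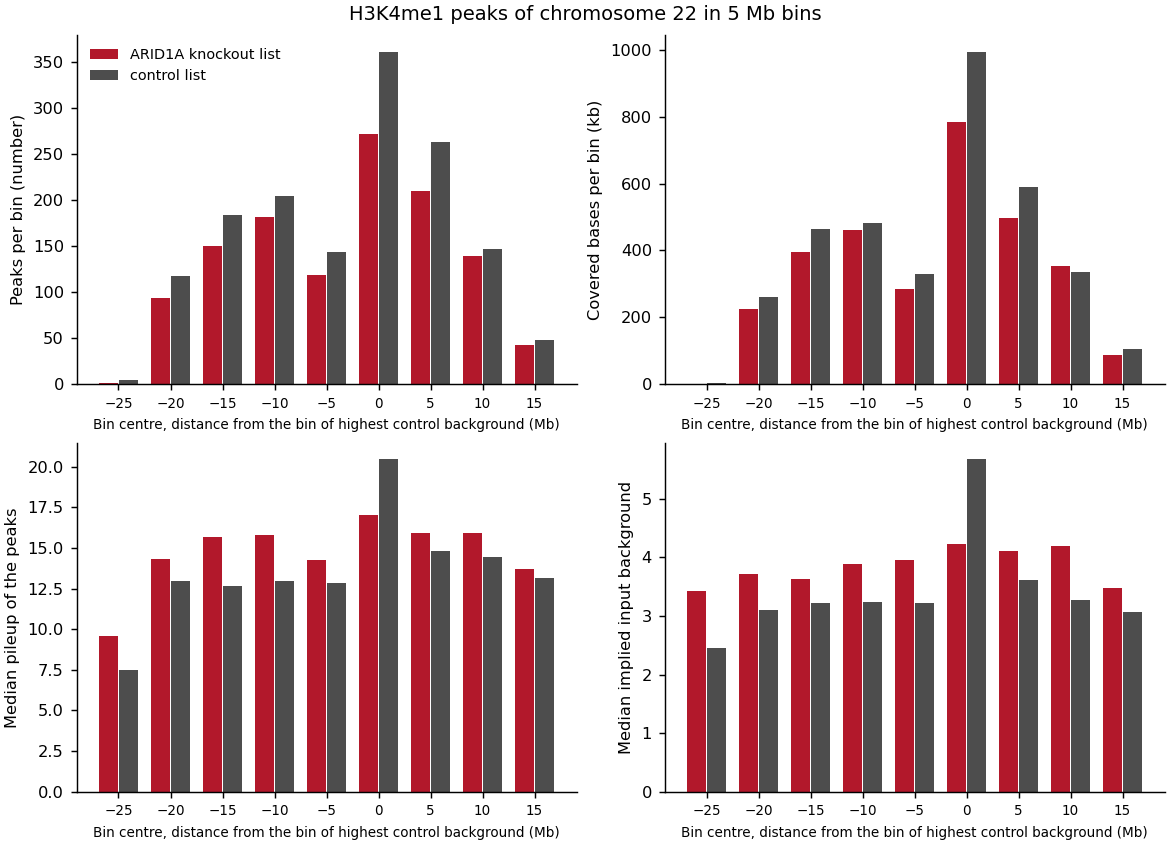
H3K4me1 peaks of chromosome 22 per 5 Mb bin (number of peaks, covered bases in kb, median pileup and median implied input background), knockout list in red and control list in grey, against the distance of the bin centre from the bin at 35 to 40 Mb. The control bars stand highest there in all 4 panels, with a pileup of 20.4 and a background of 5.67, and it is the bin at distance 0.

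Pileup and background set the 35 to 40 Mb bin apart more than peak number did. Its median pileup was 17.0 in the knockout list and 20.4 in the control list, giving a ratio of 0.834 (0.739 to 0.967). In the rest of the chromosome it was 15.4 in the knockout list and 13.5 in the control list, giving a ratio of 1.14 (1.07 to 1.21). The median implied background of the bin was 4.23 in the knockout list and 5.67 in the control list. Elsewhere on the chromosome it was 3.92 in the knockout list and 3.28 in the control list. The relative background ratio was thus 0.599 in the bin and 0.960 in the rest, and in the other 7 bins with more than a few peaks it lay between 0.901 and 1.03. Median fold enrichment, which divides the pileup by the background, was 3.46 in the knockout list and 3.35 in the control list inside the bin, and 3.24 in the knockout list and 3.26 in the control list outside it.

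Peaks in the bin covered 784645 bases in the knockout list and 993895 in the control list, giving a ratio of 0.789. The rest of the chromosome had 2301195 covered bases in the knockout list and 2574157 in the control list, giving a ratio of 0.894. The peak-number ratio was 0.753 (0.641 to 0.884) in the bin and 0.843 (0.772 to 0.921) in the rest, and these intervals overlap. The bin held 22.5% of the knockout peaks and 24.5% of the control peaks of the chromosome, and it accounted for 33.8% of the chromosome's shortfall in peaks and 43.4% of its shortfall in covered bases. The bin from 45 to 50 Mb was the single one of the 8 in which the knockout list covered more, 352423 bases against 335805 in the control list. Restricted to peaks with a fold enrichment of at least 4 in each list, the peak-number ratio was 0.750 in the bin and 0.754 in the rest, so by that measure the bin did not stand apart.

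Over the whole genome, 570 bins of 5 Mb had at least 40 peaks in the lists together, and 10 of them (1.75%) had a relative background ratio of 0.667 or less. The 35 to 40 Mb bin of chromosome 22 had the lowest of the 570, with the 185 to 190 Mb bin of chromosome 3 next at 0.610. Its control background ranked 18th from the top, whereas its knockout background ranked 282nd from the bottom, near the middle. The knockout list is thus the one in which the bin resembled other bins, and the control list the one in which it stood high.

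**Figure D2:**
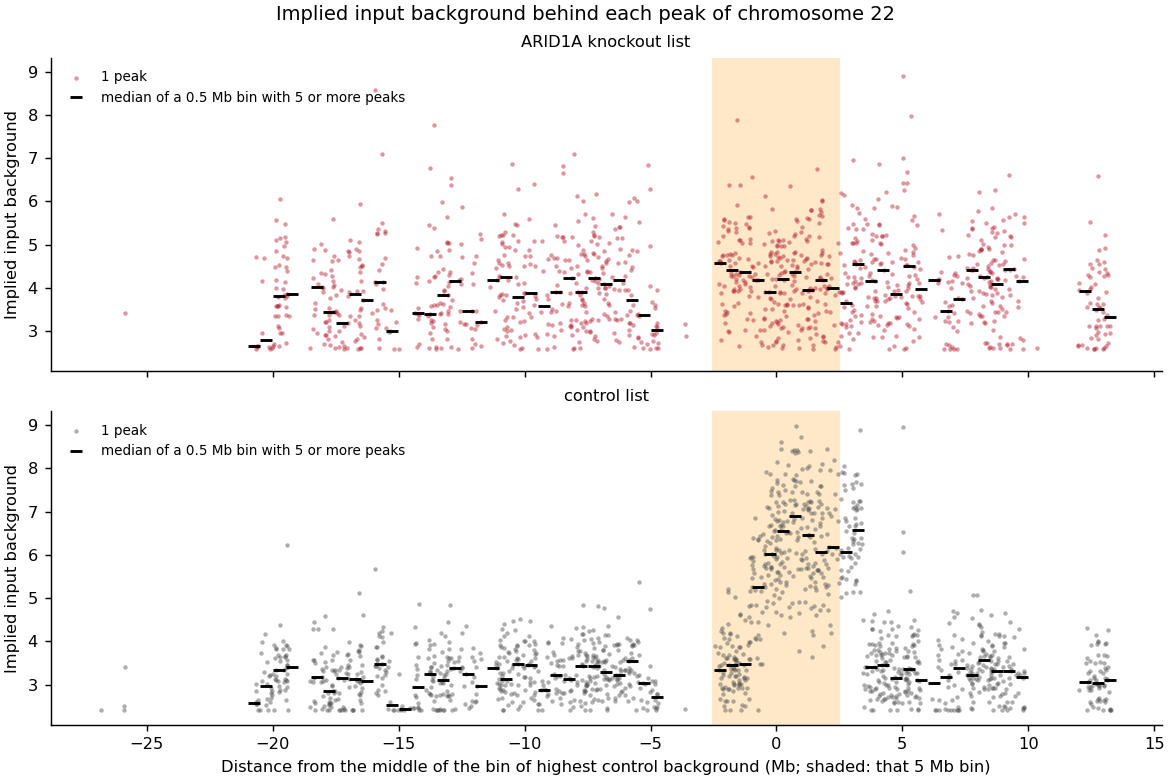
Implied input background of each peak on chromosome 22 against its distance (Mb) from the middle of the 35 to 40 Mb bin, knockout list above and control list below, with bars for the median of each 0.5 Mb bin that held 5 or more peaks. Control medians step up inside the shaded bin to as much as 6.89 and return to 3.40 about 1 Mb beyond its right edge, while knockout medians show no such step.

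In bins of 0.5 Mb the difference began inside the 35 to 40 Mb bin and ended beyond it. The relative background ratio was 1.10, 1.03 and 1.01 in the 3 bins from 35 to 36.5 Mb. It was 0.640 from 36.5 to 37 Mb, and the 8 bins from 37 to 41 Mb lay between 0.483 and 0.557. From 41 to 42 Mb it was 0.986 and 1.03. Just inside and just outside the 40 Mb edge, the 39.5 to 40 Mb and 40 to 40.5 Mb bins had 0.520 and 0.483, so that edge cut through the stretch. No peak of either list lay between 34 and 35 Mb, so the left edge had no close neighbour.

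The control medians behind these ratios were 3.35 to 3.48 from 35 to 36.5 Mb, 5.26 in the next 0.5 Mb, 6.02 to 6.89 from 37 to 41 Mb, and 3.40 and 3.46 from 41 to 42 Mb. The right-hand change was sharp. The control peak ending at position 40899164 had a background of 6.25 and the next, starting at 40950019, had 3.28. The left-hand change was less clean, with control peaks of 3.6, 3.98 and 5.92 following each other at starts 36430398, 36439012 and 36450918. With the edges moved to 36.5 and 41 Mb, which was chosen after these values were seen, the stretch held 251 knockout and 325 control peaks. Their median pileup was 16.7 in the knockout list and 23.1 in the control list, their median background 4.16 in the knockout list and 6.29 in the control list, and the relative ratio 0.531.

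Pileup and background were also set side by side within the same peaks, although both had served to choose the bin. Peaks were paired where exactly 1 knockout and 1 control peak overlapped. In the 35 to 40 Mb bin 223 pairs had a median knockout-over-control ratio of 0.689 (0.662 to 0.727) in pileup and 0.720 (0.686 to 0.756) in background. In the rest of the chromosome 687 pairs had 1.07 (1.05 to 1.08) in pileup and 1.18 (1.15 to 1.21) in background. Knockout pileup was the lower in 181 of the 223 pairs of the bin and in 255 of the 687 pairs of the rest. The fold ratio of the pairs was 0.907 (0.875 to 0.941) in the bin and 0.938 (0.922 to 0.958) in the rest, with overlapping intervals, and 0.975 (0.972 to 0.977) on other chromosomes. Between 36.5 and 41 Mb, pileup was lower in the knockout list in 199 of 204 pairs, with a median ratio of 0.641, and background in 197, with 0.645.

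**Figure D3:**
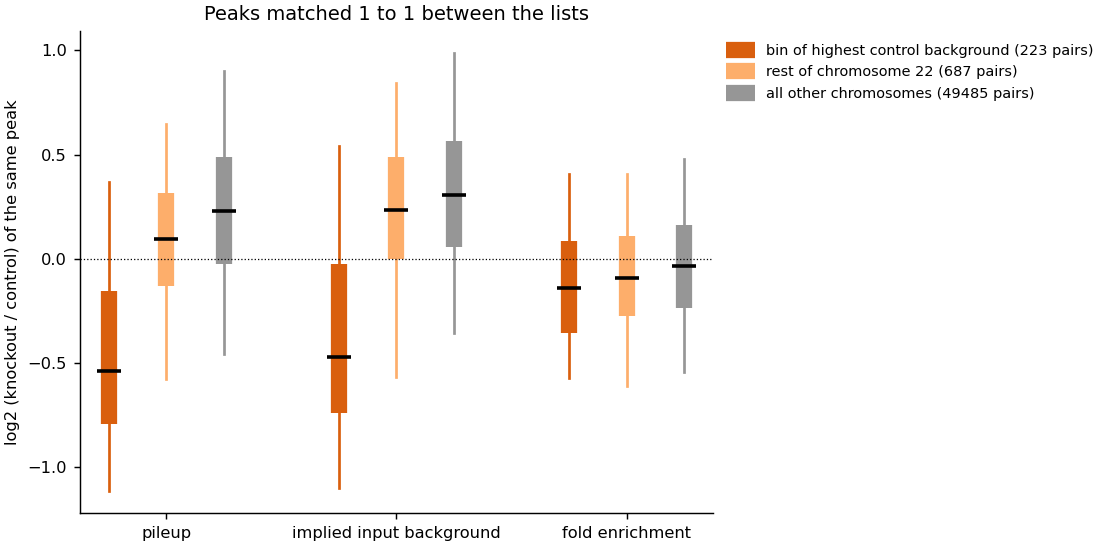
log2 of knockout over control for pileup, implied input background and fold enrichment of peaks matched 1 to 1, in the 35 to 40 Mb bin, the rest of chromosome 22 and all other chromosomes; black bars are medians, boxes the middle 50% and lines the 5th to 95th percentile. The bin lies below 0 for pileup and background, with medians of -0.54 and -0.47, and all 3 regions lie close to each other for fold enrichment.

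Of the knockout peaks of chromosome 22, 159 of 1209 (13.2%, 11.3 to 15.2) overlapped no control peak, and of the control peaks 392 of 1472 (26.6%, 24.4 to 29.0) overlapped no knockout peak. On the other chromosomes 21.4% of knockout peaks and 28.2% of control peaks were alone. The 35 to 40 Mb bin had 14 lone knockout peaks of 272 (5.15%, 2.84 to 8.49), against 145 of 937 (15.5%, 13.2 to 18.0) in the rest. Shares of lone control peaks were close, at 26.9% of 361 in the bin (22.4 to 31.8) and 26.6% of 1111 in the rest (24.0 to 29.3). Lone peaks of -log10 q 5 or higher were 0 of 272 knockout peaks in the bin, which allows a share of up to 1.35%. They were 15 of 361 control peaks there (4.16%, 2.34 to 6.76). In the rest they were 2 of 937 knockout peaks (0.213%) and 9 of 1111 control peaks (0.810%, 0.371 to 1.53). On the other chromosomes they were 1.05% of knockout peaks and 0.918% of control peaks. The q value of a caller depends on read depth, so the same q is not equally strict where pileup and background are both higher.

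The strongest peaks are given as a description, because pileup, which enters the q value, had served to choose the bin. In the knockout list the peak of highest -log10 q on the chromosome lay in CELSR1, which encodes an adhesion receptor of planar cell polarity (chromosome 22, 46514083 to 46515711), with a -log10 q of 22.03 and a pileup of 37.9. Next was a peak at a start of TRIOBP, the gene of a protein that bundles actin filaments (37747681 to 37754548). The TRIOBP peak was the strongest of the control list as well, and it had a pileup of 39.1 and a -log10 q of 21.4 in the knockout list, against a pileup of 73.4 and a -log10 q of 48.3 in the control list. Its fold enrichment was 6.98 in the knockout list and 9.60 in the control list. The other 4 of the 5 strongest control peaks also lay in the 35 to 40 Mb bin, in PLA2G6, a phospholipase gene, near CBX7, a Polycomb subunit gene, and in CYTH4 and GGA1, with pileups of 61.6, 57.2, 58.2 and 45.7. Of the 5 strongest knockout peaks the TRIOBP peak alone lay in the bin, the others being in CELSR1, WNT7B and HORMAD2 and 270253 bases from MN1.

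The widest peak of the chromosome was the same in both lists and lay over MYH9, the gene of non-muscle myosin heavy chain IIA, a motor of cell contraction and adhesion. It was 59338 bases wide in the knockout list (36326577 to 36385914) and 59232 bases in the control list (36325677 to 36384908), with 58332 bases in common. Its pileup was 34.1 in the knockout list and 26.5 in the control list. MYH9 lies in the 35 to 40 Mb bin but left of 36.5 Mb, where control medians were near those of the rest of the chromosome.

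The strongest lone knockout peaks lay 18121 bases from WNT7B, a Wnt ligand gene (45995283 to 45998295, -log10 q 6.4, pileup 19.1), in SGSM1 (24927072 to 24928131, 6.04 and 16.5) and in SREBF2 (41894288 to 41896528, 4.997 and 17.2). The next were 148149 bases from CRYBB2, a lens crystallin gene, and 21167 bases from TXN2, the mitochondrial thioredoxin gene, and of the 5 the one near TXN2 lay in the 35 to 40 Mb bin (36444621 to 36445879, 4.46 and 16.2). The strongest lone control peaks lay in ELFN2, a synaptic adhesion gene (37419751 to 37422214, -log10 q 11.3, pileup 31.4), CACNA1I, a calcium channel gene (39606349 to 39607398, 10.2 and 25.2), and FOXRED2, which encodes a flavoprotein of the endoplasmic reticulum (36504840 to 36508227, 10.1 and 25.02). The next were in FAM227A and in IL2RB, the interleukin-2 receptor beta gene, and all 5 lay in the 35 to 40 Mb bin.

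Coverage was then summed over genes, counting the bases under peaks within each protein-coding gene record and 5000 bases on either side. Windows of neighbouring genes can overlap, so the same peak can count for several genes, as at SMARCB1 and MMP11. Genes counted as higher or lower where the knockout sum was 1000 bases or more above or below the control sum. Of 439 protein-coding genes on the chromosome, 67 (15.3%) had at least 1000 more covered bases in the knockout list, where the share over all 19817 genes was 20.3%. At least 1000 fewer were found at 173 (39.4%), where the share over all genes was 30.2%. The share of lower genes was the highest of the 23 chromosomes and the share of higher genes the second lowest. Just inside the threshold were DGCR8 with 5310 knockout and 4309 control bases and APOL3 with 5314 knockout and 6325 control bases. Just outside it were EWSR1 with 8921 knockout and 7925 control bases and IL17REL with 5399 knockout and 6385 control bases.

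In the 35 to 40 Mb bin 7 of 97 genes (7.22%, 2.95 to 14.3) were higher and 49 (50.5%, 40.2 to 60.8) were lower in the knockout list. In the rest of the chromosome 60 of 342 (17.5%, 13.66 to 21.998) were higher and 124 (36.3%, 31.2 to 41.6) were lower. From 36.5 to 41 Mb, 6 of 91 genes were higher and 47 (51.6%, 40.9 to 62.3) were lower. Left of that stretch, from 35 to 36.5 Mb, 1 of 17 genes was higher and 10 (58.8%, 32.9 to 81.6) were lower, a wide interval that also holds the 36.3% of the rest of the chromosome. Among 86 genes of the 36.5 to 41 Mb stretch with peaks in both lists, 80 had a relative background ratio of 0.667 or less at their own peaks, against 8 of 287 elsewhere on the chromosome. The edges of the stretch were set from the background values, so this count describes that choice. The part of the background in the coverage differences was not tested.

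**Figure D4:**
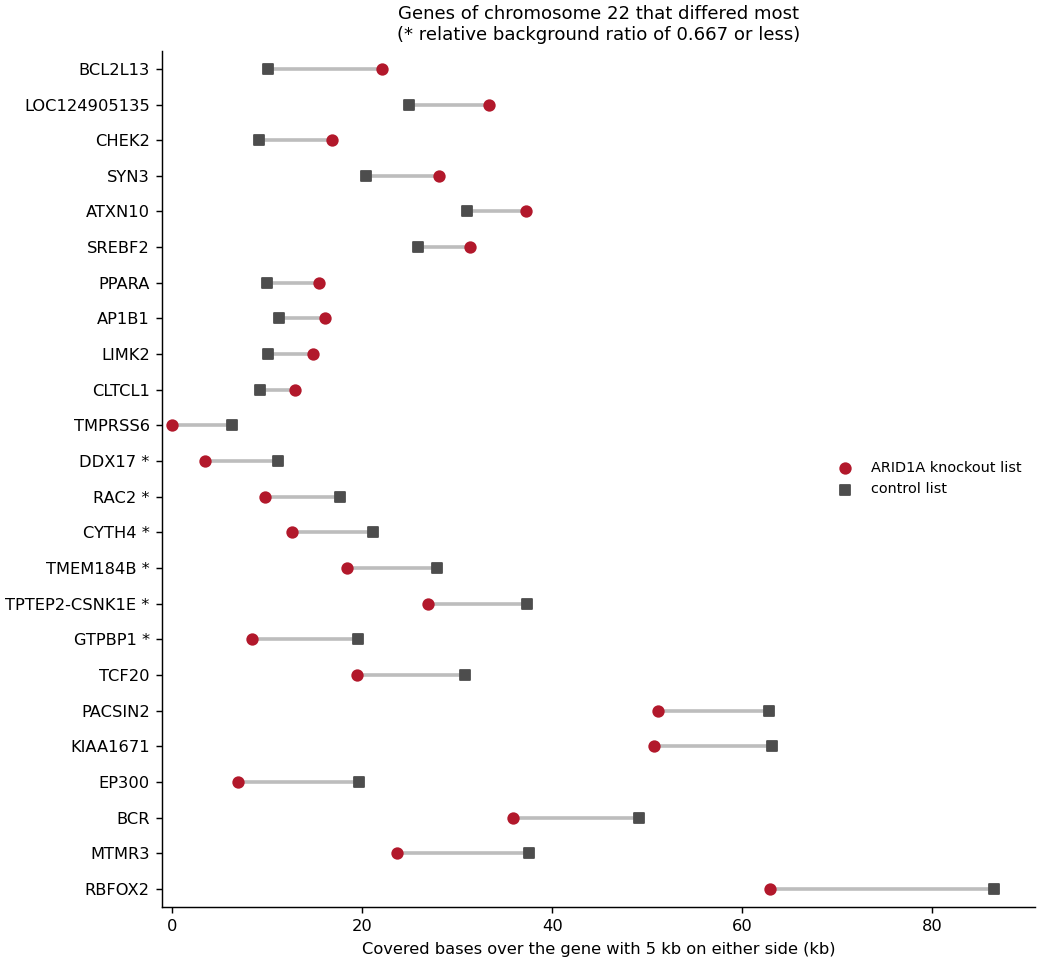
Covered bases (kb) over the genes of chromosome 22 that differed most between the lists, counted over the gene and 5 kb on either side, knockout list as red circles and control list as grey squares; asterisks mark genes whose peaks had a relative background ratio of 0.667 or less. The widest spacing is at RBFOX2, with 62891 bases in the knockout list and 86419 in the control list, and at BCL2L13, the first row, the knockout circle lies to the right.

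The gene with the largest deficit was RBFOX2, which encodes a splicing regulator of the epithelial and mesenchymal programmes (35738736 to 36028824). It had 23 knockout peaks covering 62891 bases and 30 control peaks covering 86419 bases, and a relative background ratio of 1.03. RBFOX2 lies in the 35 to 40 Mb bin but left of the high-background stretch. MTMR3, a phosphoinositide phosphatase gene (29883174 to 30030868), had 23707 covered bases in the knockout list and 37513 in the control list. BCR (23180509 to 23318037) had 35897 in the knockout list and 49171 in the control list, although among peaks of -log10 q 5 or higher the knockout list had 34215 and the control list 33337.

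EP300, the gene of the acetyltransferase p300 that marks active enhancers (41092592 to 41180077), had 4 knockout peaks covering 6959 bases and 5 control peaks covering 19648 bases. It lies just beyond the right end of the high-background stretch and had a relative background ratio of 0.954. KIAA1671 had 50712 bases in the knockout list and 63102 in the control list, and PACSIN2, which encodes a membrane-bending protein of endocytosis and caveolae, had 51126 knockout and 62840 control bases. TCF20, a transcriptional coregulator gene, had 19424 knockout and 30779 control bases, but 7380 knockout and 5999 control bases when only peaks of -log10 q 5 or higher were counted. In all 6 of these genes outside the bin, the relative background ratio lay between 0.857 and 1.06, near that of the genome.

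Inside the high-background stretch the largest deficits were at GTPBP1, a gene of a GTP-binding protein that acts in translation and mRNA decay (38705944 to 38743115), and at TPTEP2-CSNK1E, a read-through record that shares its 3' part with the casein kinase gene CSNK1E. GTPBP1 had 8380 covered bases in the knockout list and 19595 in the control list, with a relative background ratio of 0.395. TPTEP2-CSNK1E had 26904 bases in the knockout list and 37311 in the control list, with a ratio of 0.457, and CSNK1E itself had 18477 knockout and 20122 control bases. TMEM184B had 18365 bases in the knockout list and 27875 in the control list. The RNA helicase gene DDX17 had 3463 in the knockout list and 11117 in the control list. TMPRSS6, which encodes the protease matriptase-2 that restrains hepcidin, had 0 knockout peaks and 4 control peaks covering 6334 bases.

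Of 13 blood cell genes listed on the chromosome, 2 were higher, 5 lower and 6 under the threshold in the knockout list, 2 of them with no peak in either list, which is close to the 15.3% higher and 39.4% lower of all genes of chromosome 22. The higher ones were PARVG and CRYBB1. PARVG, a parvin gene of blood cells, had 4071 bases in the knockout list and 2934 in the control list. Among peaks of -log10 q 5 or higher it had 0 bases in both lists. CRYBB1, with 3971 knockout and 2635 control bases, is a lens crystallin gene although the list held it, so it says little about blood cells. All 5 lower ones lay in the high-background stretch. RAC2, a haematopoietic small GTPase gene, had 9790 bases in the knockout list and 17653 in the control list. CYTH4, a gene of an exchange factor for ARF GTPases found in leukocytes, had 12661 in the knockout list and 21174 in the control list. NCF4, a subunit gene of the phagocyte NADPH oxidase, had 577 in the knockout list and 4967 in the control list, and IL2RB had 3288 in the knockout list and 6775 in the control list. GRAP2, a T cell adaptor gene, had 5209 in the knockout list and 6600 in the control list. All 5 had relative background ratios between 0.461 and 0.526.

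The largest excess in the knockout list was at BCL2L13, a mitochondrial BCL2-family gene that serves as a mitophagy receptor (17628877 to 17730855), with 12 peaks covering 22137 bases in the knockout list and 7 covering 10082 bases in the control list. Among peaks of -log10 q 5 or higher the values were close, 4883 knockout and 4337 control bases. CHEK2, the DNA damage checkpoint kinase gene (28687742 to 28741834), had 16807 bases in the knockout list and 9125 in the control list. SREBF2, the gene of the transcription factor that drives cholesterol synthesis (41833105 to 41907305), had 31347 in the knockout list and 25915 in the control list. Its wide peak at the 5' end was 27165 bases in the knockout list and was met by 2 control peaks. PPARA, the gene of a nuclear receptor of fatty acid oxidation, had 15440 in the knockout list and 10033 in the control list.

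ATXN10 had 37278 bases in the knockout list and 31007 in the control list, and SYN3, a synapsin gene that contains the TIMP3 gene, had 28063 knockout and 20453 control bases. The clathrin adaptor gene AP1B1 had 16123 in the knockout list and 11271 in the control list, and the clathrin heavy chain gene CLTCL1 had 12918 knockout and 9250 control bases. LOC124905135, at the MIRLET7B locus, had 33386 knockout and 24943 control bases. LIMK2, which encodes a kinase of cofilin, had 14813 in the knockout list and 10151 in the control list, but 0 knockout and 4350 control bases among peaks of -log10 q 5 or higher. The 10 genes with the largest excess all lay outside the 35 to 40 Mb bin, and their relative background ratios lay between 0.811 and 1.16.

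Excesses in the 35 to 40 Mb bin were small. The largest was at APOBEC3C, a cytidine deaminase gene, with 5258 bases in the knockout list and 3642 in the control list, a difference that shrank to 5258 knockout and 4988 control bases when both lists were given the same merging distance and shortest peak and turned to 0 knockout and 2383 control bases among peaks of -log10 q 5 or higher. TRIOBP had 19525 in the knockout list and 18060 in the control list, even though its strongest peak was higher in the control list. HMOX1, the haem oxygenase gene, had 6479 in the knockout list and 5464 in the control list, and it lies left of 36.5 Mb with a relative background ratio of 1.22. C22orf23 had 2781 knockout and 1441 control bases, and SYNGR1, a synaptic vesicle gene, had 2673 knockout and 1375 control bases. With only peaks of -log10 q 5 or higher, C22orf23 had 2781 knockout and 1073 control bases and SYNGR1 had 0 in both lists. SSTR3, TMA7B and SH3BP1 followed with differences under 1000 bases. At that q SSTR3 and TMA7B kept their direction, while SH3BP1 turned to 2196 knockout and 5719 control bases.

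Over all genes of chromosome 22, 15.3% were higher and 39.4% lower in the knockout list, so a list with more lower than higher members does not stand apart by that. Lists of genes by function, drawn up with earlier results of these data known, are described by their counts beside these shares and beside medians of 0 for all genes and -507 bases for all genes of the chromosome. Of 23 chromatin and transcription regulators, 4 were higher and 13 lower in the knockout list, with a median difference of -2144 bases. The higher ones were SREBF2, PPARA, SMARCB1 and the tumour gene MN1, with 5585 bases in the knockout list and 3423 in the control list. SMARCB1, the gene of a core SWI/SNF subunit that is lost in rhabdoid tumours, had 7840 bases in the knockout list and 5554 in the control list. Among the lower ones were EP300, TCF20 and PATZ1, a zinc finger repressor gene with 2028 bases in the knockout list and 9377 in the control list. Of 12 genes of RNA binding and translation, 3 were higher (RTCB, SF3A1 and DGCR8) and 7 lower, with a median of -2821.5 bases. RTCB, the tRNA ligase gene, had 2762 knockout and 1409 control bases, but 0 knockout and 1409 control bases among peaks of -log10 q 5 or higher. SF3A1, a splicing factor gene, likewise had 3903 knockout and 2788 control bases, and 728 knockout and 2788 control bases at that q. DGCR8, a gene of the microRNA processor, had 5310 knockout and 4309 control bases, and 0 knockout and 3452 control bases at that q, so all 3 turned direction.

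Of 20 genes of the cytoskeleton and adhesion, 4 were higher and 10 lower, with a median of -1374 bases. MICAL3, a gene of a monooxygenase that disassembles actin, had 52751 bases in the knockout list and 61172 in the control list, and PARVB, a parvin gene of focal adhesions, had 3254 in the knockout list and 1885 in the control list, but 0 knockout and 1410 control bases among peaks of -log10 q 5 or higher. Of 14 matrix and secreted protein genes, 3 were higher and 8 lower, with a median of -1544 bases. The higher ones were the stromelysin-3 gene MMP11, with 15930 bases in the knockout list and 13300 in the control list, FBLN1, a fibulin gene with 24366 knockout and 23039 control bases, and SUSD2 with 1836 knockout and 641 control bases. The lower ones included PLXNB2, the semaphorin receptor gene, with 16205 in the knockout list and 20635 in the control list.

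Of 18 signalling and tumour genes, 5 were higher and 9 lower, with a median of -1148 bases. Besides those above, the adaptor gene CRKL had 21923 bases in the knockout list and 29345 in the control list, a direction that turned among peaks of -log10 q 5 or higher, to 10314 knockout and 3155 control bases. GRK3, a receptor kinase gene, had 10149 in the knockout list and 7806 in the control list, and TBC1D22A had 29648 knockout and 27612 control bases, and both had fewer knockout than control bases at that q. Of 16 redox and mitochondrial genes, 3 were higher and 9 lower, with a median of -1538.5 bases. CPT1B, of fatty acid import into mitochondria, had 6211 in the knockout list and 3515 in the control list (0 knockout and 1035 control bases at that q), and SLC25A1, the citrate carrier gene, had 7092 knockout and 4942 control bases. CYB5R3 had 14927 in the knockout list and 21343 in the control list.

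Of 16 neuronal and glial genes, 4 were higher and 5 lower, with a median of -290.5 bases. ELFN2 had 10892 in the knockout list and 16711 in the control list. CACNG2, a gene of a subunit that guides glutamate receptors, had 13310 in the knockout list and 17862 in the control list, but 10061 knockout and 5092 control bases among peaks of -log10 q 5 or higher. Of 8 cytokine and receptor genes, 0 were higher and 2 lower, IL2RB and MIF, with a median of -503 bases. MIF, the macrophage migration inhibitory factor gene, had 1595 bases in the knockout list and 3264 in the control list. Of 6 apolipoprotein L genes, 0 were higher and 2 lower, with a median of -398.5 bases. Of 7 APOBEC3 genes, all in the high-background stretch, 2 were higher (APOBEC3C and APOBEC3D) and 2 lower (APOBEC3F and APOBEC3G), with a median of -559 bases. The windows of APOBEC3C and APOBEC3D overlap and held the same 2 knockout peaks, so these are not 2 separate excesses. APOBEC3D had 2774 knockout and 1259 control bases, but 2774 knockout and 2605 control bases with equal merging, so that neither of the higher ones then passed the threshold of 1000 bases. APOBEC3F had 4217 in the knockout list and 6580 in the control list.

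Start sites went the other way from whole genes. RefSeq promoter windows were at hand for 419 starts of 308 genes on the chromosome. A knockout peak alone lay over 54 of them (12.9%, 9.83 to 16.5), where the share over all 22131 windows was 12.6%. A control peak alone lay over 23 (5.49%, 3.51 to 8.12), where the share over all windows was 4.4%. Peaks of both lists lay over 82 and of neither over 260. The chromosome's shares were close to those of all windows, so windows under a knockout peak alone outnumbered those under a control peak alone here as they did in general. In the 35 to 40 Mb bin 13 of 80 windows (16.25%, 8.95 to 26.2) were under a knockout peak alone. Under a control peak alone were 3 (3.75%, 0.780 to 10.6). Both intervals hold the shares over all windows, while covered bases in the bin were fewer in the knockout list. Each start was counted, also where windows overlap, as at C22orf23 and POLR2F, or belong to the same gene, as at ANKRD54 and TMEM184B. The 13 are thus not 13 separate places. Windows under a knockout peak alone had a median of 29.5 CG dinucleotides in 300 bases on the chromosome, those under a control peak alone 30, those under peaks of both lists 21.5 and those under neither 27.

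**Figure D5:**
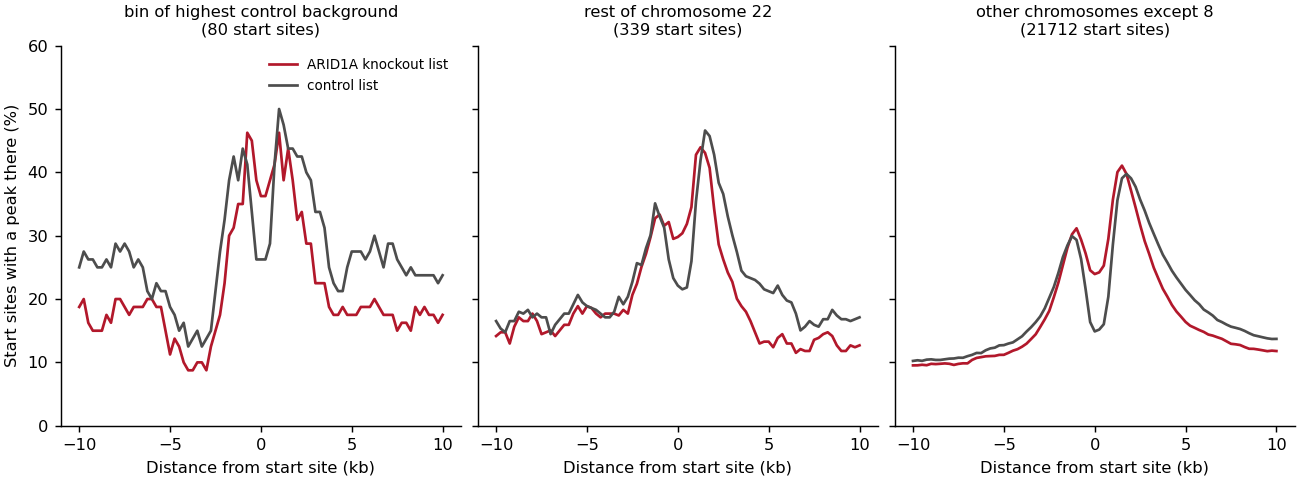
Share of start sites (%) covered by a peak at each distance (kb) from the start, knockout list in red and control list in grey, for the 35 to 40 Mb bin, the rest of chromosome 22 and all other chromosomes except 8. Both lists dip at the start itself, and at the start the knockout line lies above the control line in all 3 panels, at 36.2% and 26.2% in the bin.

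The profile of peak coverage around starts dipped at the start in both lists, in the shape known for H3K4me1. At the start itself 36.2% of the 80 sites in the bin were covered in the knockout list and 26.2% in the control list. In the rest of the chromosome it was 29.8% of 339 sites in the knockout list and 22.1% in the control list, and on other chromosomes 23.9% of 21712 sites in the knockout list and 14.9% in the control list. On the downstream side the highest coverage in the rest of the chromosome was 44.0% in the knockout list, 1250 bases from the start, and 46.6% in the control list, 1500 bases from it. At 10 kb upstream in the bin, 18.8% of sites were covered in the knockout list and 25% in the control list.

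The upstream CYB5R3 window and the TMEM184B and BCR windows were covered over all 300 bases in the knockout list and over 0 in the control list, and the downstream CYB5R3 window over 0 in the knockout list and all 300 in the control list. The other windows under a knockout peak alone included those of AP1B1, LIMK2, ATXN10, CLTCL1 and LOC124905135 among genes with more covered bases in the knockout list. They also included both TMEM184B starts and CARD10, a signalling scaffold gene, among genes with fewer. The FOXRED2 start, under its lone control peak, and MICALL1 and TAB1 were the 3 of the bin under a control peak alone.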

How the data were processed

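H3K4me1 immunoprecipitates and inputs of MDA-MB-231 cells, ARID1A knockout or control, were sequenced, 2 samples in each of 4 groups, grouped by the genotype and antibody labels. The protocol in the labels calls ab8895 an H3K4me3 antibody, but the antibody label and titles say H3K4me1, which is used here. Reads went through Bowtie2 2.3.5.1 and MACS2 2.2.6 on hg38, per the submitters' processing notes. The sources used here do not give the caller's settings or how the 2 replicates entered each call, so each list was taken as pooled. The deposited columns, per the file headers, include pileup (a signal), fold enrichment over input and −log10 q, and these per-peak values are the authors'. They were set side by side with no test. Both lists reach down to a −log10 q of 1.01. The lists hold no read totals, so depth is unknown, and weak peaks are the least certain.

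Chromosomes 1 to 22 and X were kept, which dropped 3 knockout and 6 control peaks. The shortest peak was 361 bases in the knockout list and 312 in the control list. The smallest step between neighbouring peaks was 1446 bases in the knockout list and 1250 in the control list. Different fragment lengths thus seem to have been used, which affects merging and peak width and can affect pileup and background. The pileup ratios were not adjusted for this. The implied background assumes a pseudocount of 1, rests on values averaged over a peak, and was nowhere under 2.60 in the knockout list or 2.40 in the control list. Intervals are exact for peak numbers (conditional binomial) and shares (Clopper-Pearson), and medians have order-statistic intervals. For a ratio of 2 medians, the lower end of the knockout interval was divided by the upper end of the control interval. The upper end of the knockout interval was likewise divided by the lower end of the control interval. Neighbouring peaks are not independent. Peaks counted as shared when they overlapped by at least 1 base. Gene positions, promoter windows and miRNAs came from RefSeq tables of GRCh38.p14, which has the chromosome coordinates of hg38. Of 451 protein-coding records listed for chromosome 22, 12 with positions on other scaffolds were left out. The promoter and miRNA tables are not complete, and the promoter table has no chromosome 8. Scripts ran in Python 3.11.15 with numpy 2.4.6, pandas 2.3.3 and scipy 1.17.1 and were tested on simulated peaks.

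The members, gene lists and rule for named genes were chosen with earlier results of these data known. The rule took the 10 largest differences in each direction on the chromosome, the 8 largest in each direction in the 35 to 40 Mb bin, the best covered gene of each 5 Mb bin and up to 3 members of each list in each direction, skipping overlapping windows within a ranking. It also took the 5 peaks of highest −log10 q, the 5 strongest lone peaks and the 3 widest peaks of each list, and some were left out for length or are not reported here. Genes just beside the threshold and MN1, GRAP2, CSNK1E, CARD10, MICALL1 and TAB1 were named after their values were seen.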

Additional observations from a re-analysis of the deposited data

How the results depend on the processing

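Of 126 values that give 20 results under 13 alternatives, 99 stayed close to the reported value, 27 moved and 0 turned direction. Close means inside the interval of the reported value for ratios and shares. Covered-base ratios have no interval of their own, so that of the peak-number ratio was rescaled to them. For counts it means within a fixed factor, by which 137 lower genes of the chromosome at the q limit were close to 173. A turn could be scored only for ratios whose interval excluded 1, so never for counts or shares. For the chromosome, the ratio of peak numbers (0.821) was 0.752 among peaks with a fold of at least 4 and 0.707 among the 20000 strongest peaks of each list, and the ratio of covered bases (0.865) was 0.756 and 0.793 under these. The pileup ratio (1.08) was 1.004 among peaks of −log10 q 5 or higher, and the relative background ratio (0.927) was 0.877 among the 20000 strongest. For the 35 to 40 Mb bin, the 20000 strongest gave a peak ratio of 0.589 and a relative background ratio of 0.553, a pseudocount of 0 gave 0.646, and edges at 36.5 and 41 Mb, chosen after seeing the data, gave 0.531 and a pileup ratio of 0.725. For the rest of the chromosome the peak ratio was 0.921 at the q limit, 0.754 at the fold limit and 0.772 among the 20000 strongest, and the base ratio was 0.758 at the fold limit. Lone knockout peaks (13.2%) were 18.8% at the q limit, 16% among the 20000 strongest and 22.2% when 50% of the peak had to overlap, and lone control peaks (26.6%) were 32.2%, 41.01% and 37.5%. With no bases added to a gene, 44 genes of the chromosome were higher in the knockout list (67 as reported), and with a difference of at least 2000 bases 30 were higher and 103 lower (173 as reported). In the bin the number of higher genes (7) was 4 among the 20000 strongest, 4 with no bases added and 0 at 2000 bases. The cause was not tested, except that a stricter limit keeps fewer peaks or genes by construction. Knockout peaks were fewer in 8 of 8 bins as reported, in 6 at the q limit and in 7 at the fold limit and with equal merging, and 1 bin had a relative background ratio of 0.667 or less in every setting run for it. No paired analysis was possible because each genotype has 1 pooled list with no replicate columns, and no replicate could be left out for the same reason. Without read totals, depth limits what lone weak peaks can show.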
